A study of Rattus norvegicus with 12 samples.

Results

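The 40 genes described here are a module of endothelial, mural and angiogenic genes, chosen by symbol from a fixed list. The table lists 32545 genes, among them 39 of the 40 symbols. Of these, 37 passed the filter on low values (a mean of at least 0.5 FPKM over all libraries), as did 13910 genes in all. Pecam1 was not analysed here. The 39 listed genes were grouped by role into VEGF ligands and growth factors, VEGF receptors and neuropilins, angiopoietins and Tie receptors, apelin, ephrin and Eph genes, endothelial transcription factors, junction and surface proteins, other endothelial receptors and secreted proteins, and mural cell genes.

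Endothelial cells line every vessel of the heart, and mural cells (pericytes and smooth muscle cells) wrap them. VEGF ligands act on endothelial VEGF receptors to drive sprouting, angiopoietins act on the Tie receptors to set how stable a vessel is, and PDGF-B released by the endothelium recruits mural cells that carry its receptor. In the newborn heart the capillary bed grows together with the muscle.

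The samples were Sprague-Dawley rats operated on at P1 and studied at P7. Volume overload (VO) was made by a fistula that joins the abdominal aorta to the inferior vena cava, and control rats had a sham operation. RNA of the free wall of each ventricle, left (LV) or right (RV), was sequenced. There were 3 libraries in each of the groups named sham LV, VO LV, sham RV and VO RV after operation and ventricle. Whether each library comes from its own animal or from pooled animals is not stated in the labels, so the p values measure the spread between these libraries. All 4 groups share 1 estimate of that spread. In bulk tissue, fewer cells of a type and less RNA per cell cannot be told apart.

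The libraries held 14121713 to 16871371 reads on genes. Cardiomyocyte markers summed to between 17884 and 24411 FPKM in each of the 12 libraries, and 9 endothelial genes outside the module summed to between 815 and 1526 FPKM. Sham RV 1 and VO RV 2 stood apart, with atrial markers (Myl7, Sln, Bmp10, Myl4 and Dkk3) at a summed 518 and 1600 FPKM against 227 to 369 FPKM in the other 10 libraries. The same libraries had the highest fibroblast markers, at a summed 3799 and 5128 FPKM against at most 3205 FPKM elsewhere. Y-linked genes were above 1 FPKM in sham LV 1 and 2, sham RV 1 and 2 and VO RV 3, and below it in the other libraries. The member counts, the wider gene list and the marker lists that moved are also given without both.

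The members spanned a wide range of abundance. FPKM is scaled by gene length, so levels can be set side by side between genes. Rgs5, a regulator of G-protein signalling made by pericytes, was the most abundant member, with a mean of 222 FPKM over the 12 libraries. Next came Vegfa at 126 FPKM and Cdh5, the adherens junction cadherin of endothelium, at 122 FPKM. Egfl7 followed at 112, Vegfb at 106 and Eng at 104 FPKM. At the low end, Plvap averaged 4.11, Robo4 4.10 and Angpt1 2.0 FPKM. Fgf2, a growth factor for endothelium and other cells, averaged 0.316 FPKM and was not tested. Cldn5, the claudin of endothelial tight junctions, was listed at 0 in all 12 libraries. Its interval lies inside that of Cdc45 on the opposite strand, which averaged 2.23 FPKM, and the strand setting of the counting is not given in the sources used here. Fgf2, Angpt2, Nos3, Ramp2, Egfl7, Vegfc, Tek and Mmrn2 also overlap another gene on the opposite strand, so their values could hold reads of that gene.

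Summed over the 39 listed members, the module stood at 1867, 1997 and 1940 FPKM in sham LV 1 to 3 and at 1410, 1516 and 1522 FPKM in sham RV 1 to 3. It stood at 1677, 1741 and 1544 FPKM in VO LV 1 to 3. VO RV 1 to 3 had 1437, 1498 and 1737 FPKM. The sham LV libraries were the 3 highest of the 12, and they did not overlap with any other group. VO LV and VO RV overlapped, with VO RV 3 nearly as high as the highest VO LV library.

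**Figure D1:**
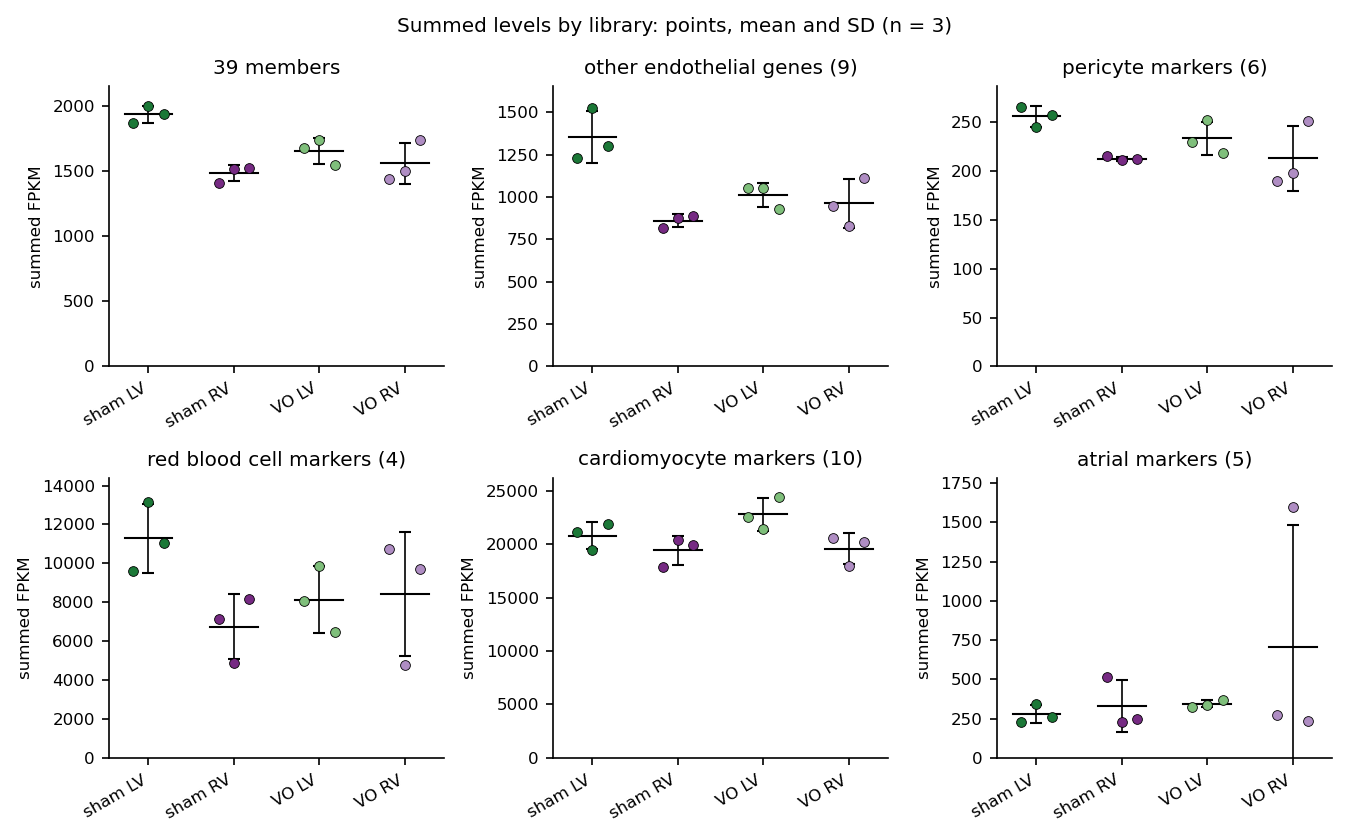
Summed FPKM (vertical axes) of the 39 listed members and of 5 marker lists in each of the 12 libraries; each point is a library, the horizontal line is the group mean and the bar is the SD (n = 3). The sham LV libraries have the highest member sums (1867 to 1997 FPKM), and VO RV 2 has the highest atrial marker sum (1600 FPKM).

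The comparison of the sham ventricles asks how the normal LV and RV differ at P7. Of the 37 tested members, 34 had a higher level in sham LV than in sham RV, against 51.6% of all tested genes. The median log2 difference of the members was 0.36, against 0.01 over all tested genes. With limma and Benjamini-Hochberg adjustment over all genes, 8 members passed an adjusted p under 0.05 and a fold over 1.3, and all 8 were higher in sham LV. Across all genes 1.51% passed in that direction and 3.86% in either. With the same fold and p under 0.05 before adjustment, 15 members were higher and 2 lower, where 8.19% and 9.63% of all genes were. The libraries of sham LV lay wholly above those of sham RV for 22 members and wholly below them for 2, against 15.6% and 16.6% of all genes. An exact permutation test of 3 libraries against 3 cannot go below 0.10, the value that each of these 24 members had.

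The count of 8 depended on the libraries and on the fit. It was 0 when sham LV 1, sham LV 2, sham RV 1, sham RV 2 or VO LV 2 was left out, and then 3, 1, 0, 4 and 5 of all 13910 genes were called, against 537 with all libraries. The calls were thus lost across all genes and not for the members alone. The count was 3 without sham LV 3 (420 genes in all) or VO LV 1 (173) and 2 without sham RV 3 (185). It was 6 without VO LV 3 (456), 9 without VO RV 1 (524), 8 without VO RV 2 (720) and 10 without VO RV 3 (870). Without sham RV 1 and VO RV 2, the libraries high in atrial markers, it was 0, with 7 genes called in all, and 34 of 37 members still had the higher mean in sham LV. It was also 0 with no filter on low values (8 of 21603 genes), 3 when the sham libraries were fitted by themselves (314 genes), 4 with atrial markers (344) and 5 with Y-linked genes (480) as a covariate. The sizes moved less than the calls. Over 28 alternatives the log2 differences of the 8 members stayed positive, between 0.33 and 0.90, and their adjusted p ranged from 0.0118 to 0.171. Leaving out a VO library does not change these differences. Since the sham groups of all 8 did not overlap, leaving out 1 sham library could not turn their sign.

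The junction and surface proteins held 3 of the 8 called members. Adgrl4, an adhesion G-protein-coupled receptor of endothelium (chr2:256609787-256724641 in the deposited table, whose build is not named in the sources used here), had 17.9, 15.5 and 18.8 FPKM in sham LV and 10.8, 12.4 and 10.2 FPKM in sham RV. Its log2 difference was 0.62 ± 0.10 (SE, n = 3 against 3, limma adjusted p = 0.0319). Every sham LV library lay above every sham RV library, and the VO libraries lay below every sham LV library, at 13.9, 15.1 and 13.4 FPKM in VO LV and 12.6, 11.8 and 13.7 FPKM in VO RV.

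Esam, an adhesion molecule of endothelial tight junctions (chr8:39997875-40008809), had 70.0, 73.1 and 65.3 FPKM in sham LV and 42.5, 46.0 and 48.5 FPKM in sham RV. The log2 difference was 0.60 ± 0.11 (SE, n = 3 against 3, limma adjusted p = 0.0325), and the sham groups did not overlap. In VO LV it had 53.9, 55.4 and 49.3 FPKM, and in VO RV 48.4, 47.7 and 62.8 FPKM. VO RV 3 stood above its group and below the lowest sham LV library.

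Emcn (chr2:242634399-242714182), endomucin, is a mucin-like surface protein of capillaries and veins. It had 57.0, 51.0 and 55.6 FPKM in sham LV and 36.5, 38.3 and 35.3 FPKM in sham RV, with a log2 difference of 0.56 ± 0.11 (SE, n = 3 against 3, limma adjusted p = 0.0356). The VO LV libraries were close together at 40.5, 40.1 and 41.8 FPKM, and VO RV spread from 36.2 and 40 to 51.5 FPKM. The sham LV libraries lay above all others except VO RV 3, which passed sham LV 2.

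The abundant cadherin gene Cdh5 was less even. Its sham LV libraries had 154, 115 and 155 FPKM and its sham RV libraries 105, 116 and 101 FPKM. The log2 difference was 0.38 ± 0.13 (SE, n = 3 against 3), which was not called (limma adjusted p = 0.102), and sham LV 2 lay below sham RV 2. Robo4, a guidance receptor of endothelium, had a log2 difference of 0.26 with overlapping groups.

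Plvap ran the other way. It encodes the diaphragm protein of endothelial fenestrae and caveolae, and is abundant in endocardium and in growing vessels. Sham LV had 1.72, 3.47 and 1.62 FPKM and sham RV 6.34, 4.11 and 4.29 FPKM. The log2 difference was -1.005 ± 0.388 (SE, n = 3 against 3, limma adjusted p = 0.138), so it was not called, although the sham groups did not overlap. The highest values of all 12 libraries were 9.70 FPKM in VO RV 2, 6.52 FPKM in VO RV 3 and 6.34 FPKM in sham RV 1. Endocardial markers were also highest in VO RV 2 and sham RV 1, at a summed 30.3 and 19.6 FPKM against 3.45 to 15.5 FPKM in the other libraries. Without these 2 RV libraries the log2 difference of Plvap was -0.83 (limma adjusted p = 0.28). The part of endocardial or atrial tissue in it was not tested.

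Among the angiopoietins and Tie receptors, Tie1 was called. Tie1, the receptor-like partner of Tek (chr5:137294532-137321101), had 90.8, 115 and 97.6 FPKM in sham LV and 67.6, 71.2 and 69.1 FPKM in sham RV. The log2 difference was 0.54 ± 0.10 (SE, n = 3 against 3, limma adjusted p = 0.0332). VO LV had 89.3, 88.3 and 78.1 FPKM, and VO RV 66.9, 68.3 and 78.8 FPKM. The LV libraries were the higher ones under both operations, apart from VO RV 3, which passed VO LV 3.

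Tek itself, the receptor that binds the angiopoietins, had a log2 difference of 0.16 ± 0.13 (SE, n = 3 against 3) and overlapping groups. Angpt1, the agonist of Tek that mural and other stromal cells make, was lower in sham LV without being called. Its values, shown after they had been seen, were 1.24, 0.848 and 0.802 FPKM in sham LV and 4.42, 2.12 and 1.71 FPKM in sham RV, a log2 difference of -1.07 ± 0.35 (SE, n = 3 against 3, limma adjusted p = 0.0899). Angpt1 was highest in VO RV 2 (4.66 FPKM) and sham RV 1, and without both libraries its difference was -0.73 (limma adjusted p = 0.144). Angpt2, the context-dependent antagonist, had a log2 difference of 0.09 ± 0.24 (SE, n = 3 against 3).

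The VEGF ligands held 1 called member. Vegfc, the ligand best known for lymphatic growth (chr16:40440207-40555576), had 5.68, 5.70 and 5.79 FPKM in sham LV and 3.92, 2.94 and 3.57 FPKM in sham RV. The log2 difference was 0.65 ± 0.16 (SE, n = 3 against 3, limma adjusted p = 0.0489). The sham LV libraries were nearly equal to each other, and VO RV 3, at 5.74 FPKM, was the only other library at their level.

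Vegfa, the main angiogenic ligand, which cardiomyocytes also make, had as large a difference with a wider spread. It had 161, 221 and 131 FPKM in sham LV and 84.9, 101 and 132 FPKM in sham RV, a log2 difference of 0.68 ± 0.25 (SE, n = 3 against 3, limma adjusted p = 0.124). Sham LV 2 was the highest of the 12 libraries, and sham RV 3 lay just above sham LV 3. Vegfb, a ligand of Flt1 tied to heart metabolism, had a log2 difference of 0.13 ± 0.16 (SE, n = 3 against 3), and its sign turned to -0.04 without sham RV 1 and VO RV 2.

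All 5 VEGF receptors and neuropilins were higher in sham LV, by log2 differences between 0.15 and 0.45, and 4 of them had groups that did not overlap. Kdr, the principal signalling receptor for VEGF-A on endothelium (chr14:34727623-34787183), was the called one. It had 34.5, 41.3 and 39.9 FPKM in sham LV and 26.5, 31.0 and 28.3 FPKM in sham RV, a log2 difference of 0.42 ± 0.10 (SE, n = 3 against 3, limma adjusted p = 0.0432). VO LV had 33.1, 34.5 and 31.6 FPKM and VO RV 27.9, 28.9 and 33.0 FPKM, so that VO RV 3 alone overlapped with the VO LV libraries.

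Flt4, the receptor for VEGF-C, had a log2 difference of 0.45 ± 0.16 (SE, n = 3 against 3, limma adjusted p = 0.108). Nrp2, a co-receptor of venous and lymphatic endothelium, had 0.40, and Flt1, which binds VEGF-A with high affinity and limits its action, had 0.28. Nrp1, the most abundant gene of this group, is a co-receptor for VEGF-A and semaphorins. It had 39.9, 42.4 and 48.5 FPKM in sham LV and 40.5, 40 and 36.9 FPKM in sham RV, and sham LV 1 lay inside the range of sham RV.

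The 4 endothelial transcription factors were all higher in sham LV and none had overlapping sham groups. Sox17, an arterial SOX factor (chr5:14890408-14895907), had 10, 16.7 and 11.4 FPKM in sham LV and 6.35, 6.72 and 8.56 FPKM in sham RV, a log2 difference of 0.75 ± 0.18 (SE, n = 3 against 3, limma adjusted p = 0.0485). Sham LV 2 was far above the rest. Sox18, a related factor of vessels and lymphatics (chr3:177177310-177179127), had 67.1, 95.4 and 77.8 FPKM in sham LV and 45.9, 58.2 and 51.1 FPKM in sham RV, a log2 difference of 0.62 ± 0.14 (SE, n = 3 against 3, limma adjusted p = 0.0432).

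The ETS factors were not called. Ets1, the most abundant of the 4, had 68.8, 70.7 and 86.0 FPKM in sham LV and 54.9, 60 and 59.5 FPKM in sham RV, with a log2 difference of 0.36 ± 0.10 (SE, n = 3 against 3, limma adjusted p = 0.0579) and a fold of 1.28, under the fold required. Erg, which keeps endothelial identity, had a log2 difference of 0.38 ± 0.10 (SE, n = 3 against 3, limma adjusted p = 0.0634).

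The 4 apelin, ephrin and Eph genes were higher in sham LV without overlap and none was called. Aplnr, the apelin receptor, had 59.3, 80 and 86.9 FPKM in sham LV and 52.7, 55.0 and 52.1 FPKM in sham RV, a log2 difference of 0.48 ± 0.14 (SE, n = 3 against 3, limma adjusted p = 0.0735). Its ligand Apln, made by sprouting tip cells, had a log2 difference of 0.41. Efnb2, the arterial ephrin, had 0.30, and Ephb4, its venous receptor, had 0.20.

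Of the 7 other endothelial receptors and secreted proteins, 6 had a higher mean in sham LV and none was called. Egfl7, a matrix protein secreted by endothelium, had 128, 186 and 141 FPKM in sham LV and 79, 80 and 116 FPKM in sham RV. The log2 difference was 0.73 ± 0.21 (SE, n = 3 against 3, limma adjusted p = 0.0666), with no overlap. Mmrn2, a ligand of endothelial surface lectins, had 0.41, Nos3, the endothelial nitric oxide synthase, had 0.40, and Ramp2, the co-receptor for adrenomedullin, had 0.36. Eng, a TGF-beta family co-receptor, had 0.18 and S1pr1, the sphingosine-1-phosphate receptor, had 0.07, both with overlapping groups.

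Vwf, the platelet-binding glycoprotein of larger vessels and endocardium, was the exception of that group, with a log2 difference of -0.06 ± 0.23 (SE, n = 3 against 3). Its values, also shown after they had been seen, were 25.1, 22.7 and 23.5 FPKM in sham LV and 34.3, 20.2 and 21.9 FPKM in sham RV. Sham RV 1 and VO RV 2 (31.6 FPKM) were the highest libraries, and without them the difference was 0.17 (limma adjusted p = 0.626).

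The 4 genes of the mural group were all higher in sham LV, and none was called or passed the unadjusted p with the fold. Rgs5 had 260, 214 and 260 FPKM in sham LV and 207, 230 and 195 FPKM in sham RV, a log2 difference of 0.21 ± 0.12 (SE, n = 3 against 3, limma adjusted p = 0.293), with sham LV 2 inside the range of sham RV. Pdgfb, the endothelial ligand for mural cells, and its receptor Pdgfrb had log2 differences of 0.35 each with no overlap, and neither was called. Cspg4, the NG2 proteoglycan of pericytes, had 0.04. A separate list of 6 pericyte markers had summed levels of 245 to 266 FPKM in sham LV and 211 to 215 FPKM in sham RV, and 1 of its 6 genes was called as higher in sham LV.

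**Figure D2:**
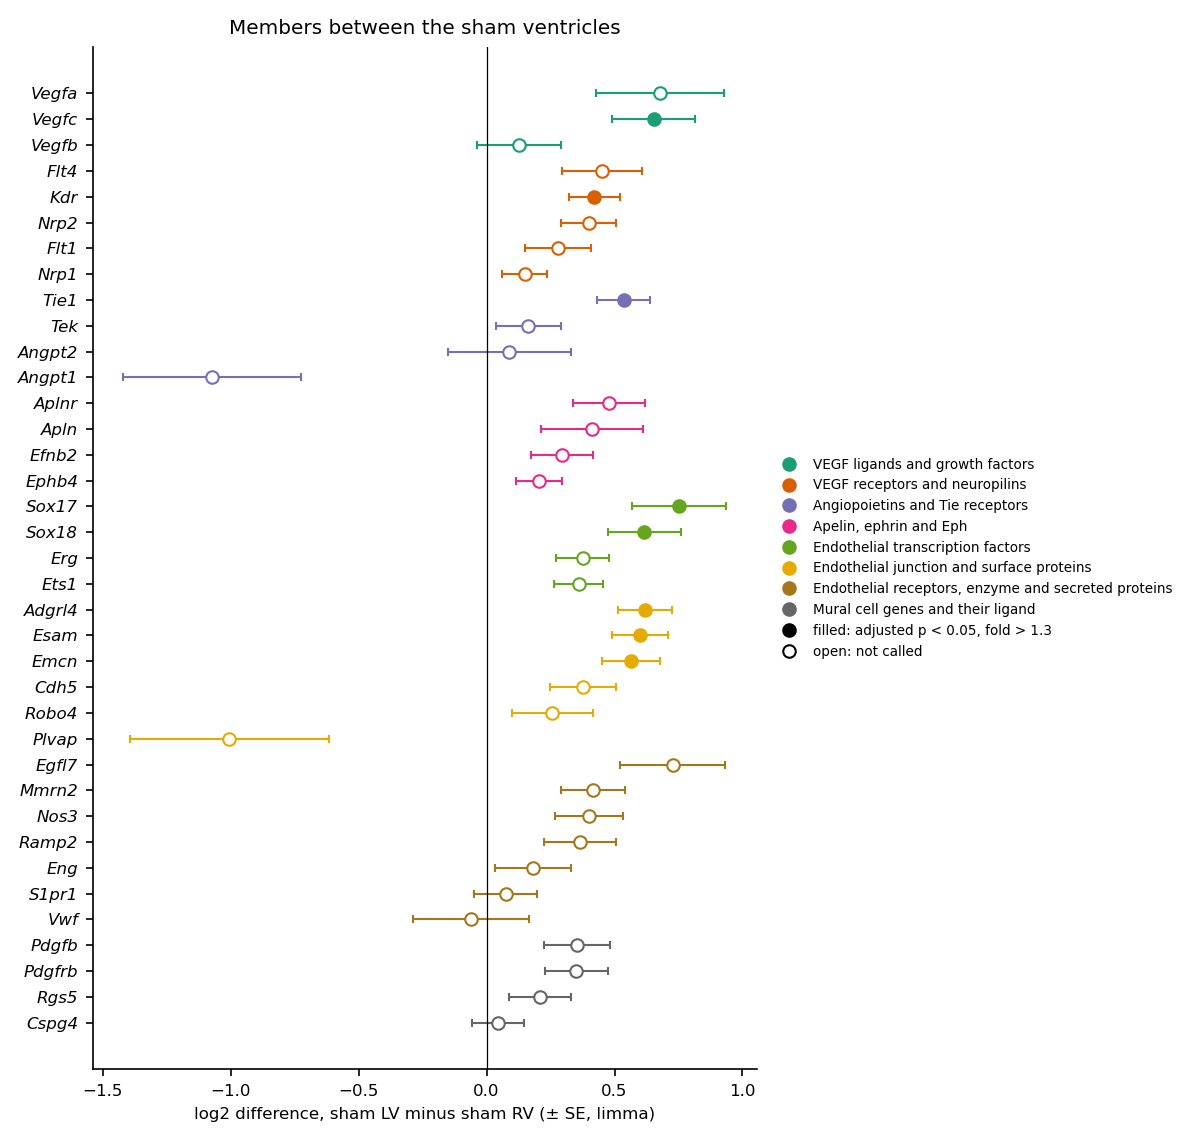
Log2 difference of sham LV minus sham RV (horizontal axis) for the 37 tested members, coloured by role and ordered within each role; points are limma estimates, bars are standard errors, and filled points were called. Only Plvap, Angpt1 and Vwf lie left of 0, and the 8 filled points lie between 0.42 and 0.75.

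**Figure D3:**
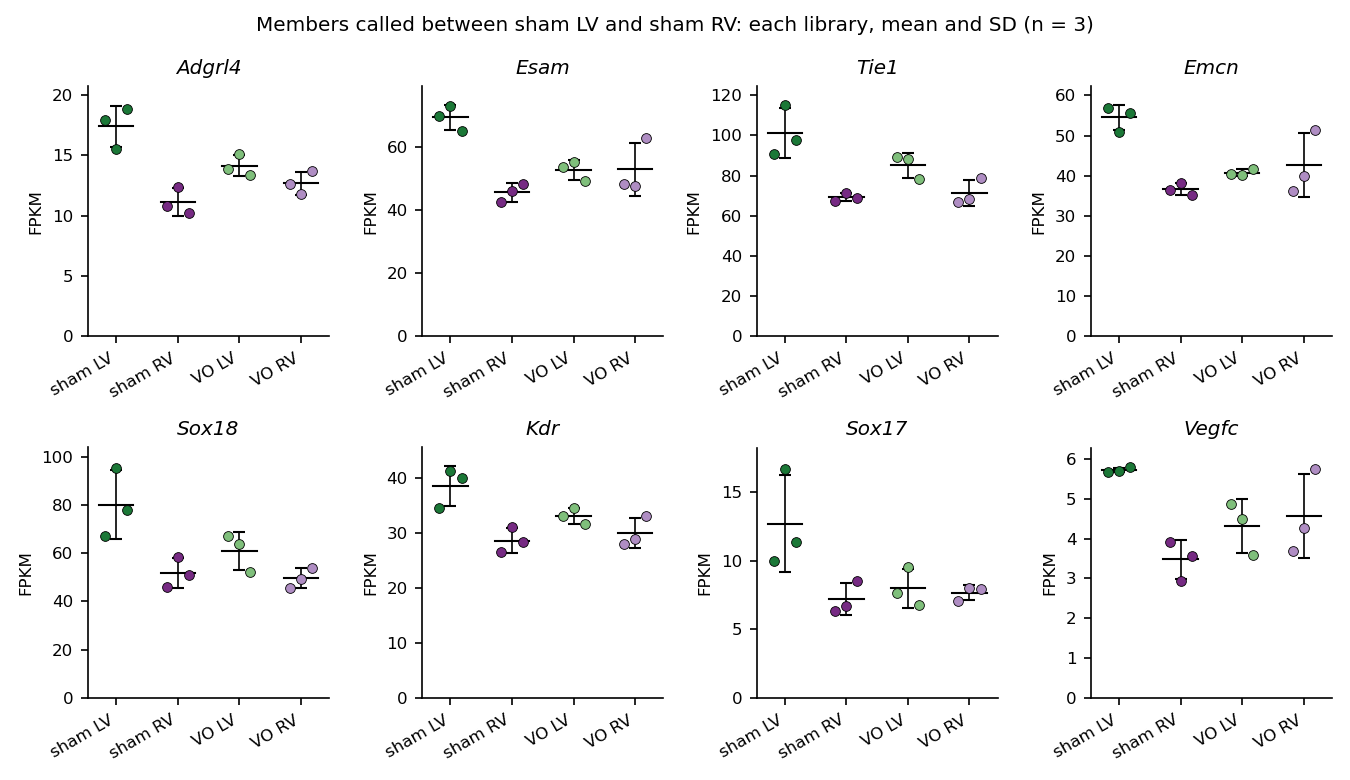
FPKM (vertical axes) of the 8 members called between sham LV and sham RV, in all 4 groups; each point is a library, the horizontal line is the mean and the bar is the SD (n = 3). In every panel the 3 sham LV points lie above the 3 sham RV points, and the VO LV mean lies between the means of the sham groups.

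RefSeq promoter windows of the GRCr8 assembly, from 250 bases before to 50 bases after each gene's start, were found for 27 of the 40 members (29 windows). They are shown for 4 of the called members, as the upstream 250 bases 5′ to 3′ on the gene's strand, so that genes that were higher together can be compared by sequence. Capitals mark matches, on either strand, to the ETS core CNGGAAG and the SOX core AACAAT. The windows are chr5:137304982-137305231 (minus strand) for Tie1, chr2:228564289-228564538 (plus strand) for Emcn, chr14:32571813-32572062 (plus strand) for Kdr and chr2:243014689-243014938 (plus strand) for Adgrl4.
Tie1: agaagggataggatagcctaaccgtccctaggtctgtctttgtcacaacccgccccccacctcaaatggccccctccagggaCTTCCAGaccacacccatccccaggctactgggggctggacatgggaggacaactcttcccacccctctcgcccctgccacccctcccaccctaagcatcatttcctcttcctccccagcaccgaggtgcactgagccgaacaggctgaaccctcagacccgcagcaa
Emcn: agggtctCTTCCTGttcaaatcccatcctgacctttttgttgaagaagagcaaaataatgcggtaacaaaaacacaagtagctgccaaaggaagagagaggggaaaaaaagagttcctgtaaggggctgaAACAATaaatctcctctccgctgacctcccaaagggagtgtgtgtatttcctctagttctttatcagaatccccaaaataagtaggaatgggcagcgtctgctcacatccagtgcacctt
Kdr: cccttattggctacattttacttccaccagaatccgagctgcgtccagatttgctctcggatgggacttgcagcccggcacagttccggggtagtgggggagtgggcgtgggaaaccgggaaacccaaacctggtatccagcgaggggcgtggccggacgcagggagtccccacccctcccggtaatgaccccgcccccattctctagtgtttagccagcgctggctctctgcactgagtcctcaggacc
Adgrl4: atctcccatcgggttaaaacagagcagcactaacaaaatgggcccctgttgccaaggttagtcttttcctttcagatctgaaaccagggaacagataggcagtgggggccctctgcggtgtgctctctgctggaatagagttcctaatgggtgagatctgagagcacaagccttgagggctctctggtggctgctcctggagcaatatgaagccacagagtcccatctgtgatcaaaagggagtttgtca

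Tie1 held 1 ETS match, Emcn held 1 ETS and 1 SOX match, and Kdr and Adgrl4 held neither in this window. Over the whole 300-base windows, 9 of the 29 member windows (31%) held the ETS letters, against 30.8% of 33469 windows of all genes. The SOX letters stood in 3 of 29 (10.3%) against 11.7%, and the hypoxia response element core ACGTG in 3 of 29 (10.3%) against 19.3%. The member windows with the hypoxia letters were those of Fgf2, Mmrn2 and Robo4. These are letter matches, not measured binding sites.

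The comparison of VO LV with sham LV asks how the LV levels of these genes stand at P7 after overload from P1. No member was called, and 0.0935% of all genes (13 of 13910) were, 0.0719% as higher in VO LV. With limma-voom on the recovered reads, 0 members were called as well, where 2.44% of all genes (339) were, 0.28% as lower. With p under 0.05 before adjustment and the same fold, 6 members passed and all 6 were lower in VO LV, where 6.44% of all genes passed in that direction and 9.27% in the other. In all, 31 of the 37 members had a lower mean in VO LV, and the median log2 difference was -0.18, against -0.02 over all tested genes, of which 47.2% were higher. VO LV lay wholly below sham LV for 12 members (15.7% of all genes) and wholly above it for 0 (16.7%).

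The 6 members were Vegfa, Egfl7, Sox17, Sox18, Esam and Emcn. Vegfa had 102, 130 and 85.8 FPKM in VO LV, against 131 to 221 FPKM in sham LV, a log2 difference of -0.67 ± 0.25 (SE, n = 3 against 3, limma adjusted p = 0.147). Sox17 had 7.66, 9.56 and 6.80 FPKM in VO LV, a log2 difference of -0.61 ± 0.18 (SE, n = 3 against 3, limma adjusted p = 0.0962). Its VO LV libraries were below all 3 sham LV libraries and 2 of them lay within the range of the sham RV libraries.

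Egfl7 had 101, 115 and 87.4 FPKM in VO LV, a log2 difference of -0.57 ± 0.21 (SE, n = 3 against 3, limma adjusted p = 0.138). Sox18 had 66.9, 63.8 and 52.0 FPKM, a log2 difference of -0.38 ± 0.14 (SE, n = 3 against 3, limma adjusted p = 0.147), and VO LV 1 lay just under sham LV 1. The junction genes had the smallest adjusted p of the members. Emcn differed by -0.41 ± 0.11 (SE, n = 3 against 3, limma adjusted p = 0.0803) and Esam by -0.39 ± 0.11 (SE, n = 3 against 3, limma adjusted p = 0.0847).

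The members that did not have a lower mean in VO LV were S1pr1, Angpt1, Plvap, Robo4, Angpt2 and Erg. S1pr1 had 54.5, 50.1 and 64.8 FPKM in VO LV and 39.3, 50.1 and 50.5 FPKM in sham LV, a log2 difference of 0.28 ± 0.12 (SE, n = 3 against 3, limma adjusted p = 0.205). Erg, at 18.1, 16.8 and 16.3 FPKM in VO LV, had a difference of 0.00 and Ets1 one of -0.15, while their SOX neighbours in the transcription factor group were among the 6. None of the mural genes passed, with log2 differences from -0.21 for Pdgfb to -0.03 for Cspg4.

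These LV values rest on few libraries. The count of 6 at the unadjusted p was 2 without sham LV 2 and 2 without VO LV 3, where the share of all genes that passed as lower was 3.62% and 3.57%, down from 6.44%. Without VO RV 3, which enters only the shared spread, 2 members, Esam and Emcn, were called as lower, where 3.98% of all genes (554) were called and 0.654% as lower. All 3 VO LV libraries were below 1 FPKM for Y-linked genes and 2 of the 3 sham LV libraries were above it. Between the 3 VO LV libraries and sham LV 3, all below 1 FPKM, the median log2 difference of the members was -0.24 and 6 of 37 were higher. With the Y-linked genes as a covariate, 1 member passed the unadjusted p, where 6.11% of all genes passed as higher and 3.31% as lower.

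The comparison of VO RV with sham RV gave no called member and no called gene of any kind (0%), with limma and with limma-voom on the recovered reads. At the unadjusted p with the fold, 0 members passed, where 1.85% of all genes passed as higher and 3.06% as lower. The median log2 difference of the members was 0.06 against 0.00 over all genes, and 30 of the 37 had a higher mean in VO RV, against 50.6% of all genes. The members with a higher mean were 25 without both libraries high in atrial markers (median 0.07) and 17 without VO RV 3 (median -0.004). For no member did the libraries of the groups lie apart (5.64% of all genes higher and 6.87% lower). The smallest adjusted p was 0.605, for Vegfc, which had 3.69, 4.27 and 5.74 FPKM in VO RV and a log2 difference of 0.34 ± 0.16 (SE, n = 3 against 3).

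The VO RV libraries were unlike each other. The median of the members' log2 values, each centred on its mean over the 12 libraries, was -0.22 in VO RV 1, -0.10 in VO RV 2 and 0.07 in VO RV 3. VO RV 2 had the highest Plvap, Angpt1, Vwf and Tek of the group. VO RV 3 had Esam at 62.8, Emcn at 51.5, Vegfa at 153 and Egfl7 at 130 FPKM, each the highest value of the group. VO RV 1 and 2 had Vegfa at 125 and 86.6 FPKM and Egfl7 at 97.7 and 81.5 FPKM, inside the range of sham RV. VO RV 3 was also the only VO library above 1 FPKM for Y-linked genes, at a summed 34.9 FPKM, and the part of that in its levels was not tested. The median log2 difference of VO RV minus sham RV was 0.20 between the libraries above 1 FPKM (1 against 2) and 0.02 between those below it (2 against 1).

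Between the ventricles under overload, VO LV against VO RV, no member was called and 0.00719% of all genes (1 gene) were. Of the 37 members, 25 had a higher mean in VO LV, against 51% of all genes, with a median log2 difference of 0.11 against 0.01. Aplnr passed the unadjusted p with the fold as higher in VO LV (3.85% of all genes did) and Plvap as lower (3.56%). VO LV lay wholly above VO RV for 6 members (8.45% of all genes), namely Ets1, Erg, Aplnr, Nrp1, Nrp2 and Cspg4, and wholly below it for 0 (7.69%).

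Aplnr had 70.7, 70.1 and 65.7 FPKM in VO LV and 52.6, 43.9 and 60.5 FPKM in VO RV, a log2 difference of 0.40 ± 0.14 (SE, n = 3 against 3, limma adjusted p = 0.341). Its level was thus ordered the same way in both operations, LV above RV. Plvap had 2.50, 1.59 and 4.17 FPKM in VO LV and 3.28, 9.70 and 6.52 FPKM in VO RV, a log2 difference of -1.07 ± 0.39 (SE, n = 3 against 3, limma adjusted p = 0.351), and VO LV 3 lay above VO RV 1. Without VO RV 2 neither gene passed the unadjusted p with the fold, and the count was also 0 without both libraries high in atrial markers, where 22 of the 37 members had the higher mean in VO LV. It was 1 without VO LV 2, where 3.8% of all genes passed as higher and 3.39% as lower. It was 4 without VO LV 3 (2.31% and 3.24%) or VO RV 3 (2.19% and 3.05%).

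For the 8 members called between the sham ventricles, the VO ventricles are given side by side. The log2 difference of VO LV minus VO RV was 0.01 for Esam, -0.05 for Emcn, 0.04 for Sox17, -0.06 for Vegfc, 0.15 for Adgrl4, 0.14 for Kdr, 0.26 for Tie1 and 0.29 for Sox18. Esam, Emcn, Sox17 and Vegfc lay close to 0, Tie1 and Sox18 had the largest values, and none of the 8 was called.

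Whether the response to VO differed between the ventricles was tested directly, as the LV response minus the RV response. This contrast uses all 4 groups, so it shares its sham and VO libraries with the comparisons above. It equals VO LV minus VO RV less sham LV minus sham RV. A large positive sham difference therefore pushes it down, and it is not a separate finding. No member was called, where 4.19% of all genes (583) were, 3.46% with a higher response in the LV. With limma-voom on the recovered reads, 2 members were called, where 5.78% of all genes (804) were called and 1.10% as lower. At the unadjusted p with the fold, 9 members passed, all with a lower response in the LV, where 9.94% of all genes passed in that direction and 13.1% in the other. Of the 37 members, 32 had a negative difference of responses, with a median of -0.28 against -0.04 over all genes, of which 46.4% were positive. The calls over all genes rested on single libraries. They numbered 0 without sham LV 1, sham LV 2, sham RV 1, VO LV 2 or VO LV 3, 4 without sham RV 2, 111 without VO RV 3 and 240 without VO LV 1.

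Esam and Emcn came closest to the threshold. Esam differed by -0.59 ± 0.16 on the log2 scale (SE, n = 3 per group, limma adjusted p = 0.0547), from responses of -0.39 in the LV and 0.20 in the RV. Emcn differed by -0.61 ± 0.16 (SE, n = 3 per group, limma adjusted p = 0.0547), from -0.41 and 0.20. Both lie at the junction and surface of endothelial cells, as does Adgrl4, at -0.47 ± 0.15 (SE, n = 3 per group, limma adjusted p = 0.0862).

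Both VEGF ligands with a large sham difference, which this contrast subtracts, were among the 9. Vegfc differed by -0.71 ± 0.23 (SE, n = 3 per group, limma adjusted p = 0.0894), and Vegfa by -0.86 ± 0.35 (SE, n = 3 per group, limma adjusted p = 0.163). Sox17 differed by -0.71 ± 0.26 (SE, n = 3 per group, limma adjusted p = 0.128). Egfl7, Ramp2 and Mmrn2 made up the rest, at -0.74, -0.53 and -0.44. The VEGF receptors, the apelin and ephrin genes and the mural genes had none among the 9, and their differences ran from -0.34 for Flt4 to 0.14 for Cspg4. The largest positive value was 0.41 ± 0.49 for Angpt1 (SE, n = 3 per group, limma adjusted p = 0.622).

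Leaving out VO RV 1 gave 3 called members, where 7.21% of all genes were called and 1.78% as lower, and 12 at the unadjusted p. Leaving out VO RV 2 gave 1 called member, where 6.53% of all genes were called and 1.75% as lower. Without sham LV 2, VO LV 3 or VO RV 3 the count at the unadjusted p was 5, where 7.38%, 7.01% and 6.38% of all genes passed as lower, against 9.94% with all libraries. Without both libraries high in atrial markers it was 7, with 0 members and 2 genes of any kind called, and 31 of 37 differences were negative. Each of the 9 had a lower mean in VO LV than in sham LV and a higher mean in VO RV than in sham RV, and none of these differences was called by itself.

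**Figure D4:**
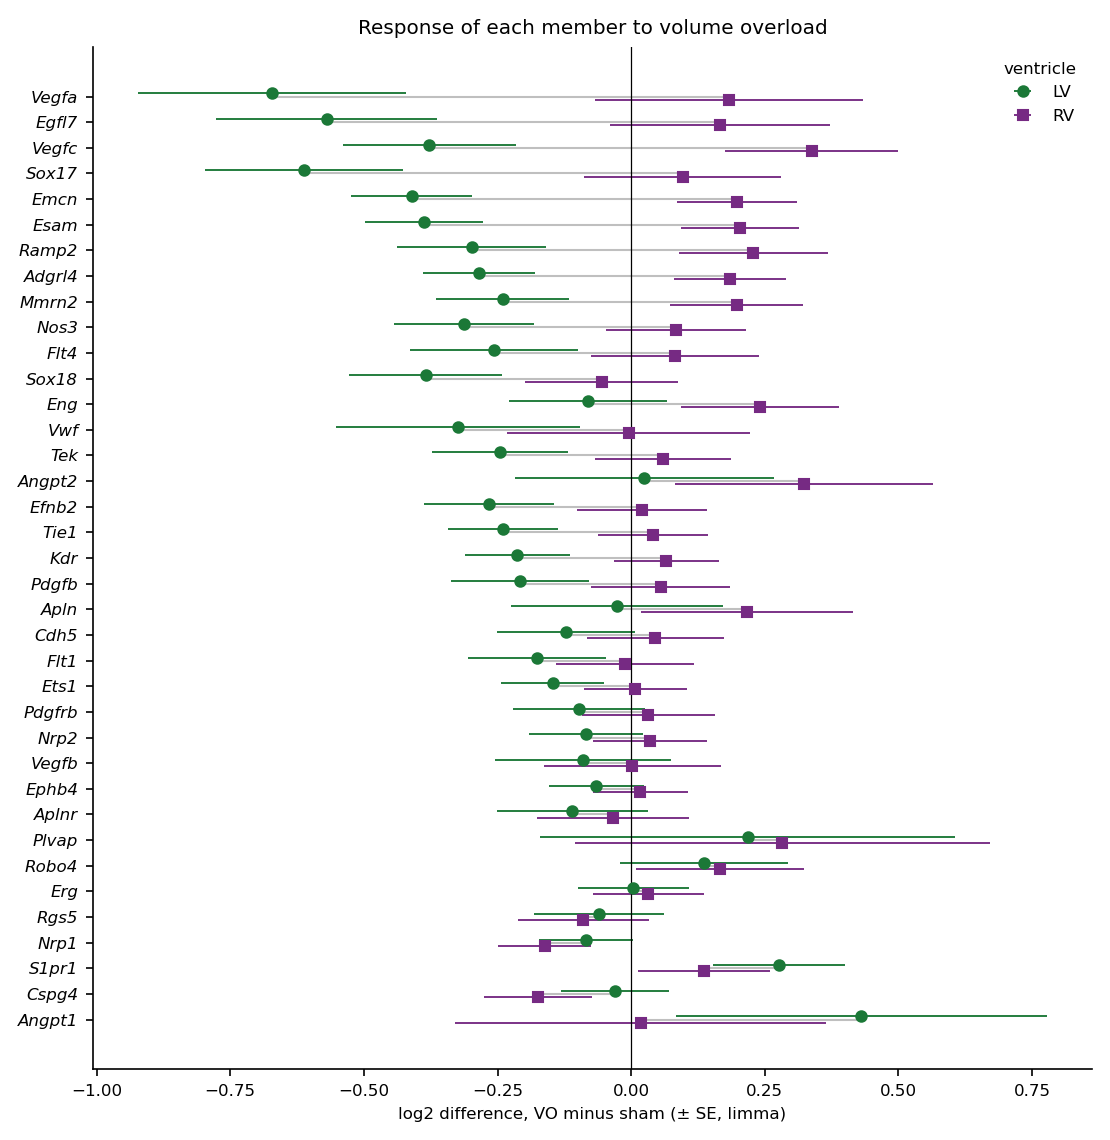
Log2 difference of VO minus sham (horizontal axis) for the 37 tested members, with LV values as green circles and RV values as purple squares; bars are standard errors from limma, a grey line joins the values of a gene, and genes are ordered by the difference between them. For 32 of the 37 genes the LV value lies left of the RV value, and 31 LV values lie left of 0.

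A wider list of 139 vascular genes outside the module was read beside it, of which 133 were listed and 128 tested. Ang and Ndp were listed at 0 in all libraries. Between the sham ventricles 15 of the 128 were called as higher in sham LV and 2 as lower, where 1.51% and 2.35% of all genes were, while the median log2 difference was 0.08. As for the members, these calls did not outlast the loss of 1 library: 0 of the 128 were called without sham LV 1, sham LV 2, sham RV 1, sham RV 2 or VO LV 2, or without both libraries high in atrial markers. The most clearly higher were Icam2, an endothelial adhesion molecule, at 0.57 ± 0.10 (SE, n = 3 against 3, limma adjusted p = 0.0319), and Lmo2, a cofactor of blood and vessel development, at 0.67 ± 0.13. Gja4, the arterial connexin, was at 0.61 ± 0.12 and Fabp4, the fatty acid carrier of capillary endothelium, at 0.86 ± 0.17. Ntn1, a secreted guidance cue, was lower in sham LV by a log2 difference of -1.76 ± 0.33 (SE, n = 3 against 3, limma adjusted p = 0.0325).

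In each ventricle alone, VO gave 0 called genes on the wider list. At the unadjusted p, 14 of the 128 were higher and 19 lower in the LV, where 9.27% and 6.44% of all genes were, and 4 and 1 in the RV, where 1.85% and 3.06% were. Between VO LV and VO RV it also had 0 called, with 4 higher and 14 lower at the unadjusted p (3.85% and 3.56% of all genes). For the difference of responses 3 were called as higher and 3 as lower, where 3.46% and 0.733% of all genes were. None of these calls stood without both libraries high in atrial markers, or without sham LV 1, sham LV 2, sham RV 1, sham RV 2, VO LV 2 or VO LV 3, and without VO RV 1 there were 6 and 10. Without both libraries 4 of the 128 were lower in VO LV than in VO RV at the unadjusted p, in place of 14. Lmo2 (-0.83) and Icam2 (-0.64) had the negative sign that most members had, and Ntn1 (2.29), the gap junction gene Gja1 (1.26) and the lymphatic regulator Prox1 (1.64) had the opposite sign.

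Markers of other cell types also differed between the groups. The 9 endothelial genes outside the module summed to 1233 to 1526 FPKM in sham LV, 815 to 887 in sham RV, 930 to 1055 in VO LV and 828 to 1113 in VO RV, and 4 of the 9 were called as higher in sham LV than in sham RV, where 1.51% of all genes were. None of the 9 was called without both libraries high in atrial markers. Nor was any called without sham LV 1, sham LV 2, any 1 of the sham RV libraries or VO LV 2. In each of these fits 4 of 9 passed the unadjusted p as higher. The sum of these genes follows the most abundant of them. Gene by gene, 8 of the 9 were higher in sham LV with all libraries, and their median log2 difference was 0.30. This list and the wider list rest on the same libraries and are not separate findings. Red blood cell markers (4 genes) summed to 9620 to 13178 FPKM in sham LV and 4896 to 8161 FPKM in sham RV, then to 6460 to 9881 FPKM in VO LV and 4776 to 10757 FPKM in VO RV, and both of these ranges overlapped with that of sham LV. All 4 passed the unadjusted p as higher in sham LV, and none was called. The 10 cardiomyocyte markers summed to 19411 to 21862 FPKM in sham LV, 17884 to 20419 in sham RV, 21367 to 24411 in VO LV and 17906 to 20598 in VO RV, with 1 called as higher and 1 as lower between the sham ventricles. The part of blood content, cell mixture or Y-linked status in the member values was not tested.

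On the remaining marker lists, 1 of 2 tested liver genes was called as higher in sham LV, and 1 of 5 atrial and 1 of 5 lymphatic genes as lower. Of 6 epicardial markers 1 was called as higher in sham LV while the other 5 were lower there, with a median log2 difference of -0.82 and 2 lower at the unadjusted p. No call was made among 9 fibroblast, 6 smooth muscle, 2 endocardial, 8 macrophage and leukocyte, 2 skeletal muscle and 2 thymus genes, and no adipocyte marker passed the filter. Without both libraries high in atrial markers no gene of any marker list was called. With all 12 libraries, smooth muscle markers were higher in sham LV for 6 of 6 genes (median 0.37) and macrophage and leukocyte markers for 8 of 8 (median 0.21). Fibroblast markers were higher there for 0 of 9 (median -0.20). Without both libraries these were 6 of 6 (median 0.45), 8 of 8 (0.25) and 1 of 9 (-0.12).

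Some of these lists also differed in the comparisons with VO. In VO LV against sham LV no marker was called. Cardiomyocyte markers were higher in VO LV for 8 of 10 (median 0.39, 4 at the unadjusted p). Beside the 31 of 37 members with a lower mean in VO LV, red blood cell markers were lower for 4 of 4 (median -0.44), epicardial for 6 of 6 (-0.39), pericyte for 5 of 6 (-0.29), fibroblast for 8 of 9 (-0.20), smooth muscle for 5 of 6 (-0.19) and macrophage and leukocyte for 7 of 8 (-0.18). Macrophage and leukocyte markers were higher in VO RV than in sham RV for 8 of 8 genes (4 at the unadjusted p, 0 called). Beside the negative differences of responses of 32 of the 37 members, these markers were negative for 8 of 8, with a median of -0.51 and 1 called. Some other lists had the same sign with 0 called. Red blood cell markers were negative for 4 of 4 (median -0.59), smooth muscle for 6 of 6 (-0.58), epicardial for 6 of 6 (-0.58) and fibroblast for 8 of 9 (-0.37). Cardiomyocyte markers went the other way, positive for 6 of 10 (median 0.25) with 2 called as higher. Of 5 lymphatic markers 1 was called as higher, with a median of -0.28. Between VO LV and VO RV, 7 of 9 fibroblast and 5 of 6 epicardial markers were lower in VO LV at the unadjusted p, with medians of -0.56 and -1.42 and 0 called. Without VO RV 2 and sham RV 1 these were 4 of 9 and 5 of 6, with medians of -0.34 and -1.53. The part of these cell types in the member values was not tested. Within the libraries above 1 FPKM for Y-linked genes, the median log2 difference of the members between sham LV and sham RV was 0.28 (2 against 2 libraries), and within those below it was 0.39 (1 against 1).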

How the data were processed

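RNA from LV and RV free walls of 12 libraries (4 groups of 3, by the labels) was analysed from a deposited table of FPKM. The authors aligned reads with HISAT2 2.0.5 and counted them with featureCounts 1.5.0-p3 (submitters' processing notes), tested genes with DESeq2, and expressed counts as FPKM (fragments per kilobase, scaled to the library). The genome build, annotation and strand setting are not given in the sources used here. Gene lengths and positions were taken from the deposited table. Every column of values was mapped to a sample (0 unmapped).

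Multiplied by gene length, 100% of values under 200 reads were whole multiples of 1 step per library within 0.02, which gave the reads on each gene. The log2 of each FPKM over its library's median-ratio size factor was used with a pseudocount of 0.5, so that fold changes of low genes are understated. Genes averaging 0.5 FPKM or more were fitted in R 4.3.3 with limma 3.58.1 (1 model of 4 groups, eBayes with trend, 5 contrasts), and p values were adjusted over 13910 genes. A gene was called at an adjusted p under 0.05 with a fold over 1.3, the thresholds of the study. limma-voom on the recovered reads called 684 genes between the sham ventricles, 339 between VO LV and sham LV, 0 in the RV, 1 between VO LV and VO RV and 804 for the difference of responses. The procedure was tested on simulated data.

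The members and lists were chosen with earlier results of these data known. Of a symbol listed more than once, the most abundant entry was used. Members were shown by library if called, among the 5 smallest unadjusted p of a comparison with a fold over 1.3, or the most abundant of their role. Likeness to Pecam1 was not computed, since Pecam1 was not analysed here. Alternatives were no size factor, quantile normalization, pseudocounts of 1 and 0.1, no filter, a minimum mean of 1 FPKM, separate fits, replicate blocks, robust eBayes, array weights, voom, covariates for atrial markers and Y-linked genes, removal of the length trend, and each library left out. Leaving out both RV libraries high in atrial markers, and leaving out libraries for the wider and marker lists, were chosen after seeing the data. The western blots, microRNA measurements and ultrasound of the study were not analysed here.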

Additional observations from a re-analysis of the deposited data

How the results depend on the processing

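No difference of a member that was called, or was among the smallest unadjusted p of a comparison, changed sign under the alternatives run. The median of VO RV against sham RV did, from 0.06 to -0.004 without VO RV 3. Without single libraries, the called members of sham LV against sham RV ranged from 0 to 10, those at the unadjusted p from 14 to 22 and the median from 0.34 to 0.38. For VO LV against sham LV these ranges were 0 to 2, 2 to 7 and -0.23 to -0.10. For VO RV against sham RV they were 0 to 0, 0 to 2 and -0.004 to 0.14. For VO LV against VO RV they were 0 to 0, 0 to 4 and 0.05 to 0.17. For the difference of responses they were 0 to 3, 5 to 12 and -0.33 to -0.20.

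Called members between the sham ventricles were 0 with no filter on low values (0.037% of all genes), 3 in a separate fit (2.26%), 4 with the atrial covariate (2.47%), 5 with the Y-linked covariate (3.45%) and 0 without both RV libraries high in atrial markers (0.0503%). Array weights gave 1 called member for VO LV against sham LV (5.06% of all genes), and 2 for the difference of responses (7.53%) with a median of -0.19. Voom (5.78%) and the atrial covariate (8.72%) also gave 2 called for that difference. At the unadjusted p, the Y-linked covariate gave 1 for VO LV against sham LV (6.11% of all genes higher, 3.31% lower). For VO RV against sham RV it gave 1 (2.21% and 4.16%), as did array weights (2.23% and 3.68%). For VO LV against VO RV, quantile normalization gave 1 (3.93% and 3.36%), the atrial covariate 1 (5.94% and 3.7%), and leaving out both RV libraries 0 (5.28% and 3.2%). The percentages are the share of all genes called, or passing the unadjusted p with the fold, in the same fit. The causes were not tested.

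With the replicate number as a block over all groups or within treatment, 0 members were called between the sham ventricles, as were 3 and 0 of all genes, and 17 and 16 members passed the unadjusted p. The labels do not say that a number marks an animal, and the numbers were not taken as pairs. Not every same-numbered pair correlated above 0.1, but this cannot exclude pairing. Deviations of same-numbered libraries correlated at 0.0376 to 0.123 between sham LV and sham RV, where 4 of 6 libraries were closest to their own number and 3 of 3 pairs matched in Y-linked state. Between VO LV and VO RV they correlated at -0.219 to 0.0536, with 1 of 6 and 2 of 3. Groups of different operations hold different rats. For sham LV and VO LV the values were -0.00814 to 0.115, with 4 of 6 and 1 of 3. For sham RV and VO RV they were -0.134 to 0.0587, with 0 of 6 and 0 of 3. These correlations thus cannot show whether a number marks a pair. Of the named members' values, 430 kept their side of the threshold, 107 lost a call and 13 gained one. The 430 include values of comparisons in which the member was not called, where no call could be lost. Each member called between the sham ventricles kept its call in 10 (Sox17) to 19 (Esam and Adgrl4) of 28 alternatives. The pooled counts thus do not show that these calls were stable. Depth limits the low genes: Fgf2, at a mean of 0.316 FPKM, was tested in no comparison under the filter used.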
